A study of Homo sapiens with 3 samples.

Results

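LINE elements, the long interspersed nuclear elements of the genome, held 551 of 5968 MEIS1 peaks (9.23%) in CWR22Rv1-LV-MEIS1 cells and 29 of 2047 (1.42%) in CWR22Rv1-HOXB13ko-LV-MEIS1 cells. These 580 of 8015 peaks were taken by 1 rule, that the authors' HOMER annotation placed the peak in a repeat of the class LINE. HOMER gives a repeat only to peaks outside promoters and exons, so the peaks compared with them are the other intron and intergenic peaks of the same list, 3926 in LV-MEIS1 and 1260 in HOXB13ko-LV-MEIS1, called the other distal peaks here. Values of the annotation chose the members, and no signal did.

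CWR-22Rv1 is a prostate carcinoma epithelial line that came from a CWR22 xenograft carried in castrated mice after it had relapsed. Both lines of the study expressed exogenous MEIS1 from a lentivirus, and in HOXB13ko-LV-MEIS1 cells HOXB13 was also knocked out by CRISPR. MEIS1 chromatin was precipitated with the antibody ab19867, and input chromatin without precipitation was the control. The headers of both lists name the same input with the same tag count, whereas the study's methods describe an input for each line, and fold enrichment in the knockout list is read here as relative to the input the header names. The authors pooled 3 precipitations of LV-MEIS1 and 2 of HOXB13ko-LV-MEIS1 and called peaks once on each pool, so there is 1 list per line and no spread between replicates. The pools held 202428594 and 105763683 tags and the input 39102495. A difference between the lists therefore cannot be told apart from the depth of the pools or the number of precipitations, and no test was made between the lines. The study's text describes a longer LV-MEIS1 list than the deposited one. Peak names in the deposited list run from 1 to 5968 without a gap, and any further peaks were not analysed here.

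LINEs copy themselves through RNA and a reverse transcriptase, and most copies are broken remnants that no longer move. L1 is the family that is still active in humans, with younger primate-specific branches (names that begin L1P) and older mammalian ones (L1M and the related HAL1), whereas L2 and CR1 stopped spreading long before primates arose. MEIS proteins are TALE homeodomain factors that bind TGACA and pair with PBX and HOX proteins, and posterior HOX proteins such as HOXB13 prefer sites with TTTAT. The word TGATTTAT, which contains TTTAT, joins a TALE-like start to a posterior HOX site.

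Many peaks in LINEs of LV-MEIS1 cells held one or both of these words near the summit. The windows that follow come from hg38, are written 5′ to 3′ on the strand that carries the word, and mark the word in capitals. The first set holds the TGACA nearest the summit in strong peaks of each family, to show the word in different elements, and in the LINE peak annotated to LUM. The L1MA5A and L1MA4 windows share most bases on both sides of the word.
no gene name, L1MA5A, chr3:24658359-24658387, minus strand: aaactactcatcTGACAggtgattaatat
REG3A, L1MA4, chr2:79171891-79171919, plus strand: aaattacccatcTGACAggtaataaatac
MIR99AHG, L2a, chr21:16080048-16080076, minus strand: tgttaaatgaatTGACAtgctggacttct
PDE4D, L2a, chr5:59049220-59049248, plus strand: ctagaaaattccTGACAtttacaggcact
ELL, L3, chr19:18504577-18504605, minus strand: tcttctgaggccTGACAggtgggcctaac
LINC02049, L3, chr3:120802359-120802387, plus strand: aaggctcttgtgTGACAggcagaataaat
LUM, L2a, chr12:91099613-91099641, minus strand: tcctaacaaagtTGACAtttataggggat

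The second set comes from peaks present in both lines, to show what lay at the summits of LINE peaks called in both lists. The first 5 hold TGACA and the last 3 hold TGATTTAT, and the LOC153910 window is that of the knockout summit.
GSTP1, L1M5, chr11:67582553-67582581, minus strand: tggctttagacaTGACAgacagcttctcc
IL36B, L1MC3, chr2:113046763-113046791, minus strand: aataagttatgtTGACAgtatgtacctta
RXYLT1-AS1, L2a, chr12:63806296-63806324, minus strand: tttatcatcttcTGACAcacaatatattt
LINC01501, L1ME4b, chr9:90555577-90555605, plus strand: tgtcaacattcaTGACAgttcaatatcca
PKP1, MamRTE1, chr1:201309559-201309587, minus strand: tacaaaggacagTGACAcacacacaacct
LOC153910, L1ME2z, chr6:142593158-142593187, minus strand: atgatccggctTGATTTATgtgtgtgtgtg
LIMCH1, L2c, chr4:41319787-41319816, plus strand: catagagctcaTGATTTATtggaggtgaat
FOXK1, L3, chr7:4416604-4416633, minus strand: tttgaatgtgaTGATTTATtaggccattta

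The third set shows AACAAATATTTA, the 12-base word that, tied with AATAAATATTTG, occurred in the most L2 summit windows of LV-MEIS1. Bases beside the word were alike in most of these copies and differed in the CDH18 copy.
ACSL3, L2a, chr2:222796863-222796892, plus strand: tcatcactcAACAAATATTTAttgagtgct
RAB10, L2a, chr2:26012415-26012444, minus strand: catcagttcAACAAATATTTAttgagtgcc
LIMCH1, L2c, chr4:41319708-41319737, minus strand: gattcattcAACAAATATTTAtcaagtgtc
PSD4, L2a, chr2:113159065-113159094, plus strand: tatttattcAACAAATATTTAttgaaggcc
CDH18, L2a, chr5:20057166-20057195, minus strand: ggcatgctgAACAAATATTTAtgttgcgtt

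L1 was the main family in both lists. In LV-MEIS1 cells 328 of the 551 LINE peaks lay in L1 (59.5%, 95% Wilson interval 55.4 to 63.5), 182 in L2 (33%, 29.2 to 37.1) and 27 in CR1 (4.9%, 3.39 to 7.04). The remaining 14 were 7 RTE-X, 4 RTE-BovB and 3 Dong-R4 peaks. In HOXB13ko-LV-MEIS1 cells 20 of 29 lay in L1 (69.0%, 50.8 to 82.7), 7 in L2 (24.1%, 12.2 to 42.1), and 1 each in CR1 and RTE-BovB. The intervals of each family overlapped between the lists, whereas the share of the whole list that was LINE was 9.23% (8.52 to 9.99) in LV-MEIS1 and 1.42% (0.988 to 2.03) in HOXB13ko-LV-MEIS1. These intervals cover counting error only. The share of hg38 that each family or branch covers was not used, so these shares have no genome reference here.

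**Figure D1:**
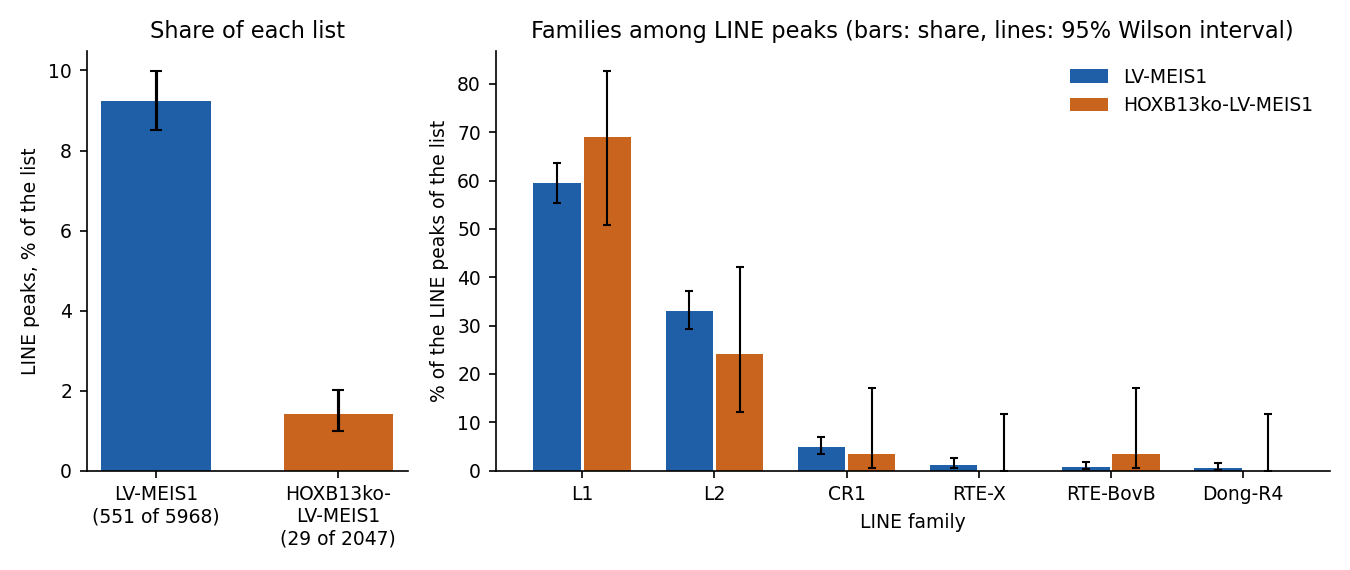
Left, the share of each peak list annotated to a LINE (%), and right, the share of the LINE peaks in each of 6 families (%), with 95% Wilson intervals as lines. LINE peaks were 9.23% of the LV-MEIS1 list and 1.42% of the HOXB13ko-LV-MEIS1 list, and L1 led in both.

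Among repeats as such, LINEs made up 551 of the 1162 LV-MEIS1 peaks in annotated repeats (47.4%) and 29 of 830 in HOXB13ko-LV-MEIS1 (3.49%). The other distal peaks lay in repeats of other kinds in 610 of 3926 cases (15.5%) in LV-MEIS1 and in 786 of 1260 (62.4%) in HOXB13ko-LV-MEIS1. The knockout list was thus rich in repeats that were not LINEs, which bears on each comparison made within it.

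The L1 copies with a peak were mostly of older branches, a count with no genome reference beside it. In LV-MEIS1 cells 247 of 328 L1 peaks lay in L1M elements (75.3%), 65 in L1P elements (19.8%) and 16 in HAL1 (4.88%), and in HOXB13ko-LV-MEIS1 cells 17 of 20 lay in L1M (85.0%) and 3 in L1P. The L1 peaks of LV-MEIS1 were spread over 85 element names, with L1ME1 (20 peaks), HAL1 (16), L1ME4b (14), L1M5 (12) and L1PA16 (11) the commonest. The 182 L2 peaks had only 5 element names, of which L2a held 84, L2c 51 and L2b 38, and 14 of the 27 CR1 peaks lay in L3. In HOXB13ko-LV-MEIS1 cells 23 element names were found among 29 peaks, and L2a, with 5 peaks, was the commonest.

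Reads of 50 bases can be placed in most of these copies. Of the 547 LV-MEIS1 LINE peaks on chromosomes 1 to 22, X and Y, 521 (95.2%) had at least 90% of the 50-base windows around the summit occurring once in hg38. The share was 237 of 244 in L1M, 180 of 181 in L2 and 47 of 65 (72.3%) in L1P. Whether the placement of reads affected the share of L1P among L1 peaks was not tested. In HOXB13ko-LV-MEIS1 cells it was 25 of 27 LINE peaks (92.6%), against 776 of 1207 other distal peaks (64.3%). The 2 exceptions were the L2b peak annotated to SLC22A31 on chromosome 16, with 42.1% of windows occurring once, and an L1PA4 peak without a gene name on chromosome 21, with 76.3%.

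Fold enrichment divides the scaled pileup at the summit by the local background that MACS2 expects there, after a pseudocount of 1, and LINE peaks lay in the middle of its range. In LV-MEIS1 cells it ran from 2.71 to 16.96 over the 551 LINE peaks, with a median of 6.16, and the median was 6.11 in L1, 6.16 in L2 and 6.75 in CR1. The other distal peaks had a median of 6.30 and reached 19.14. In HOXB13ko-LV-MEIS1 cells the 29 LINE peaks ran from 2.08 to 10.12 with a median of 6.22, and the other distal peaks had a median of 6.14 and reached 17.06. Both pools were scaled to the same input tag count. Because they differed in depth and in number of precipitations, raw fold enrichments of the 2 lines are not compared directly. Where both are printed, the comparison between lines is by percentile of the peak's own list. The median LINE peak stood at percentile 49.7 of the LV-MEIS1 list and at percentile 59.0 of the HOXB13ko-LV-MEIS1 list.

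**Figure D2:**
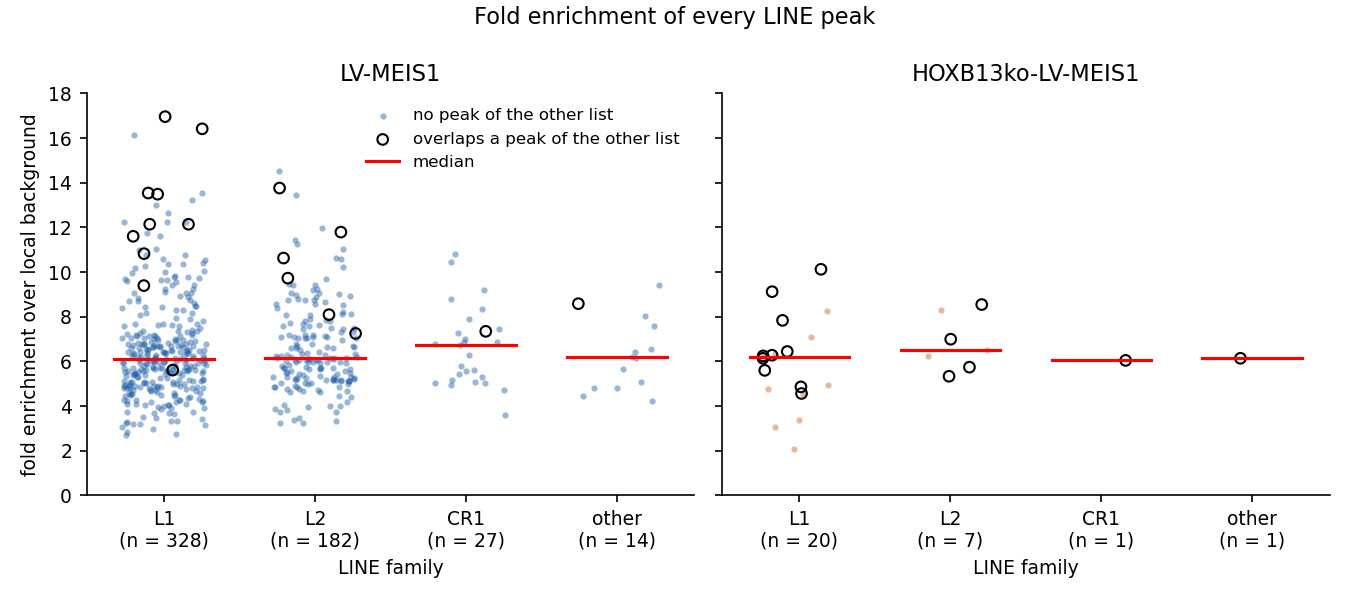
Fold enrichment over local background (vertical axis, linear) of every LINE peak by family in LV-MEIS1 (551 points) and HOXB13ko-LV-MEIS1 (29 points). Open circles mark peaks that overlap a peak of the other list, and red lines mark medians. The open circles of LV-MEIS1 sit mostly in the upper part of its range, up to 16.96.

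By strength, LINEs of the LV-MEIS1 list numbered 5 among the 100 peaks of highest fold enrichment (5.00%, 2.15 to 11.2), 41 among the highest 500 (8.20%, 6.10 to 10.9) and 91 among the lowest 1000 (9.10%, 7.47 to 11). These intervals overlap. In HOXB13ko-LV-MEIS1 none was among the highest 100 (95% Wilson interval up to 3.70%) and 6 were among the highest 500.

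The 3 strongest LINE peaks of LV-MEIS1 cells were in L1. An L1ME2z element in an intron of the non-coding gene LOC153910 had a fold enrichment of 16.96 (q = 1.26e-57). An L1MA5A element on chromosome 3 without an annotated gene, inside the non-coding THRB-AS1 of GENCODE, reached 16.42. An L1MB2 element near FRG2DP on chromosome 16 reached 16.14, an L1MA4 element 12147 bp upstream of REG3A, which encodes a secreted antimicrobial lectin, 13.54, and an L1MC4 element 10845 bp upstream of GPD1L, a glycerol-3-phosphate dehydrogenase, also 13.54. Of these 5, all but the FRG2DP peak had every window occurring once, and that peak had 96.1%.

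In L2, the 5 strongest were all L2a copies. The peak in the first intron of MIR99AHG, a host gene of microRNAs, had a fold enrichment of 14.54. The peak annotated to RFC3, a subunit of the clamp loader of DNA replication, lay 307029 bp from its start and reached 13.76. The peak in an intron of PDE4D, which breaks down cyclic AMP, reached 13.44, that in LINC01075 11.97, and that 64099 bp upstream of ACSL3, an enzyme that activates long-chain fatty acids, 11.79. TGACA was within 50 bp of the summit in the first 3 and absent there from the LINC01075 and ACSL3 peaks, which held TTTAT.

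The strongest CR1 peaks reached less than those of L1 and L2, although the CR1 median was not lower. CR1 had only 27 peaks, against 328 in L1 and 182 in L2, so these highest values are not like for like. An L3 copy in the first intron of ELL, an elongation factor of RNA polymerase II, had 10.82. The next were in STAU2 (10.44), which encodes an RNA-binding protein, near LINC02049 (9.18), in NELL1 but annotated to ANO5 (8.78), and in SDK1 (8.37), which encodes a cell adhesion molecule. All 5 held TGACA near the summit.

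In HOXB13ko-LV-MEIS1 cells the strongest L1 peaks were the same LOC153910 element (10.12), an L1MC3 in an intron of the cytokine gene IL36B (9.12), an L1M3f annotated to MIR4776-1 (8.26), an L1ME4b near LOC101927851 (7.84) and an L1MA4 near LINC01756 (7.09). The strongest L2 peaks were L2a copies at RXYLT1-AS1 (8.55), 7398 bp upstream of COX6A1 (8.29), a subunit of cytochrome c oxidase, and near LINC01299 (6.99), followed by L2b at SLC22A31 (6.52) and L2a near PRSS22 (6.23). The only CR1 peak was the L3 copy annotated to FOXK1 (6.04).

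LINE peaks of LV-MEIS1 lay farther from genes than the other distal peaks of that list. In LV-MEIS1 cells 317 were intergenic and 234 in introns (42.5%, 38.4 to 46.6), against 2034 of 3926 other distal peaks in introns (51.8%, 50.2 to 53.4). Their median distance to the nearest transcription start site was 57425 bp, with quartiles of 20397 and 177386 bp and a minimum of 657 bp, and that of the other distal peaks was 41731 bp. Beyond 100 kb lay 214 of 551 LINE peaks (38.8%, 34.9 to 43.0), 1075 of 3926 other distal peaks (27.4%, 26 to 28.8) and 21.7% of the whole list. Within 10 kb lay 76 LINE peaks (13.8%, 11.2 to 16.9), 802 other distal peaks (20.4%, 19.2 to 21.7) and 38.1% of the whole list. The intervals of LINE and other distal peaks did not overlap in either class, and no test was run on distances.

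By family, the median distance was 61459 bp in L1, 50549 bp in L2 and 101658 bp in CR1. Beyond 100 kb lay 137 of 328 L1 peaks (41.8%, 36.6 to 47.2), 57 of 182 L2 peaks (31.3%, 25.0 to 38.4) and 14 of 27 CR1 peaks (51.9%, 34 to 69.3), with intervals that overlapped. In HOXB13ko-LV-MEIS1 cells the 29 LINE peaks had a median distance of 29501 bp, and the other distal peaks one of 27093 bp. Beyond 100 kb lay 8 LINE peaks (27.6%, 14.7 to 45.7), 18.4% of the other distal peaks and 11.8% of the whole list. Within 10 kb lay 5 LINE peaks (17.2%, 7.60 to 34.5), 24.0% of the other distal peaks and 48.7% of the whole list. Both shares of the other distal peaks lay inside the LINE intervals. Of the 29, 22 were intergenic and 7 intronic.

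Only 2 LINE peaks of LV-MEIS1 were within 1 kb of a start site, and none in HOXB13ko-LV-MEIS1. Both were in the first intron of their gene and held TGACA, an L2b copy 959 bp into TMEM9, a membrane protein gene (fold enrichment 7.64), and an L2c copy 657 bp into ALKBH8, a tRNA-modifying enzyme (6.29).

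By GENCODE, 220 of the 551 LV-MEIS1 summits lay in a protein-coding gene, 207 distinct genes in all, and 12 in an annotated exon. In HOXB13ko-LV-MEIS1 6 of 29 lay in a protein-coding gene and 1 in an exon. The nearest gene that the authors' annotation named was the protein-coding host in 137 of the 220 LV-MEIS1 cases and 2 of the 6 knockout cases, so the gene named beside a peak is often not the one that contains it. The LV-MEIS1 peaks carried 497 gene names, 450 of them once and 42 of them in 2 peaks each, and 344 peaks were annotated to protein-coding genes and 188 to non-coding RNA genes. The HOXB13ko-LV-MEIS1 peaks carried 27 names, none more than once, and 15 names were in both, 3.02% of the LV-MEIS1 names and 55.6% of the knockout names. The same shares over all gene names of the lists were not counted, so these values have no reference here.

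In LV-MEIS1 cells 5 genes had 3 LINE peaks each by annotated name, which is not a count by host gene. Near MIR8060 the elements were L1PA17 (fold enrichment 11.60), L1MB8 (7.27) and L1ME1 (11.01), and near PER4 they were L1PA15 (10.17), L1MC4 (7.79) and L2a (6.14). Near MIR4275 fold enrichment was 6.78, 5.06 and 5.95, and near LINC01309 it was 5.61, 4.79 and 9.09, and all 6 of these summits were at least 637732 bp from the named gene's start. The peaks given to OTULINL were an L2c copy in its own intron (8.54) and L1MC1 (6.55) and L1MC4a (5.96) copies that lie inside TRIO. Each of these 5 groups had 3 different element names. Of the 42 genes with 2 LINE peaks, 6 had both in the same element name, such as L1MD2 near POSTN and L1PA6 near PARP14, which were chosen after their values were seen.

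Some genes of 7 lists, chosen for the study's themes, were annotated to LINE peaks. Of all 4158 gene names annotated to an LV-MEIS1 peak 497 (12%) had one in a LINE, and of 1619 in HOXB13ko-LV-MEIS1 27 (1.67%) had one. The lists were not tested against these shares. Of 55 genes of receptor kinases and RAS, 14 had any LV-MEIS1 peak and 7 had one in a LINE. They included INSR, the insulin receptor, with L1ME4a (10.26) and L2b (5.21) copies in its introns, EPHA6, an ephrin receptor, with an intronic L2a (9.01), VEGFC, a lymphatic growth factor, with L3b (7.89) 149821 bp upstream, EGFR with L2c (6.66) 31034 bp upstream, and BRAF with L1ME3G (6.22) 21377 bp upstream. Of 66 cadherin and adhesion genes, 22 had any peak and 4 had one in a LINE. CDH18 had intronic L2a (8.73) and L1P3 (6.67) copies, CDH10 an intronic L1MEg (7.64), CDH11 an L1PA8A (8.94) 481682 bp away, and CNTNAP5 an L1ME2z (4.77) 921845 bp away. No gene of these 2 lists was the annotated gene of a LINE peak in HOXB13ko-LV-MEIS1. By host, however, the knockout L2b peak annotated to SLC22A31 lay inside the cadherin gene CDH15. The knockout L1MC peak annotated to MTRNR2L5 lay inside the protocadherin gene PCDH15.

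Among 34 prostate and androgen response genes, 18 had any LV-MEIS1 peak and 2 had one in a LINE. SLC45A3, which encodes the prostate protein prostein, had an L1MD2 copy 18647 bp upstream with a fold enrichment of 12.23 at percentile 96.7, with TGACA at the summit. PMEPA1, an androgen-induced gene, had an L2b copy 51933 bp upstream at 5.11, without the word. Of 39 proteoglycan genes, 6 were annotated to an LV-MEIS1 peak and 3 to a knockout peak. LUM, which encodes the small leucine-rich proteoglycan lumican, had an L2a copy 12144 bp from its start at 7.73 in LV-MEIS1 only, and DCN, which encodes decorin, had no LINE peak. TSKU, of the same proteoglycan family, had an L1M4c copy 5659 bp upstream at 6.22 in HOXB13ko-LV-MEIS1 only. By host, however, LV-MEIS1 LINE peaks also lay inside GPC5, a glypican proteoglycan gene. They were annotated to GPC5-AS1 (Mam_R4, 6.18, and L1PA17, 6.22) and GPC5-AS2 (L1MEg, 6.73, and L1M4, 9.80). Of 50 HOX and TALE genes, 42 of TGF-beta and BMP signalling and 51 of Wnt signalling, 16, 8 and 10 had an LV-MEIS1 peak and none had one in a LINE.

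TGACA was concentrated at the summits of LINE peaks in LV-MEIS1 cells. It lay within 50 bp of the summit in 278 of 551 (50.5%, 46.3 to 54.6) and in 20.7% of windows of the same width centred 500 bp to either side, a difference of 29.8 points (exact test, adjusted p = 5.47e-23). The share of all LV-MEIS1 peaks with the word was 56.1%. L1 peaks held it in 156 of 328 cases (47.6%) against 21.2% in flanks (exact test, adjusted p = 1.27e-11), and L2 peaks in 97 of 182 (53.3%) against 21.7% (exact test, adjusted p = 2.56e-08). CR1 peaks held it in 17 of 27 (63.0%, 44.2 to 78.5) against 14.8%. All flank tests were two-sided exact binomial tests on peaks with the word in 1 window only, with the larger p of both flanks, and the 14 tests of words and overlaps were adjusted together by the Benjamini-Hochberg method.

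The word was less common in LINE peaks than in the other distal peaks of LV-MEIS1, 50.5% against 2246 of 3926 (57.2%), a difference of -6.75 points (Fisher's exact test, adjusted p = 0.00502). L2 and L1 did not differ past the threshold, 53.3% against 47.6% (exact test, adjusted p = 0.293). Of the LINE peaks above percentile 90 of fold enrichment 30 of 46 held it (65.2%, 50.8 to 77.3), and of those up to percentile 50 136 of 280 (48.6%, 42.8 to 54.4), with intervals that overlapped and no test. By element, it was in 9 of 12 L1M5 peaks and 6 of 7 L1MD2 peaks but in 0 of 7 L1MC2 peaks and 2 of 8 L1ME3A peaks, small groups whose extremes were picked by their values.

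**Figure D3:**
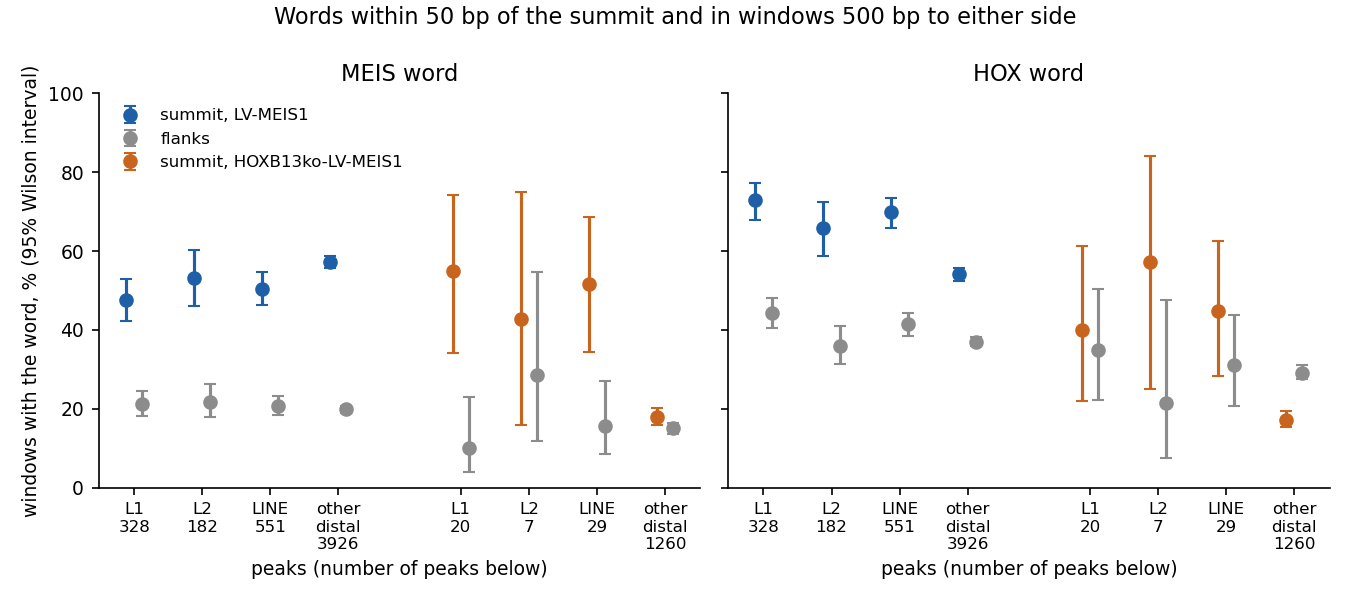
Share of windows that hold the MEIS word (TALE core, left) or the HOX word (posterior HOX core, right) within 50 bp of the summit (coloured) and in windows 500 bp to either side (grey), in %, with 95% Wilson intervals, by group of peaks in each list. In LV-MEIS1 the summits of L1 and L2 peaks lie above their flanks for both words, and in HOXB13ko-LV-MEIS1 LINE summits hold the MEIS word in 51.7% and the other distal summits in 17.9%.

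In HOXB13ko-LV-MEIS1 cells LINE peaks held TGACA in 15 of 29 cases (51.7%, 34.4 to 68.6), whereas the whole list held it in 16.8%. Flanks of the 29 peaks held it in 15.5% of windows (difference 36.2 points, exact binomial test, adjusted p = 0.0331). Of the other distal peaks 226 of 1260 held it (17.9%), lower by 33.8 points (Fisher's exact test, adjusted p = 0.00013). Against the 474 distal peaks outside all repeats, of which 27.4% held it, the difference was 24.3 points (exact test, adjusted p = 0.0194). The 20 L1 peaks held it in 11 cases against 10.0% in flanks (exact test, adjusted p = 0.054), and the 7 L2 peaks in 3 cases against 28.6% (exact test, adjusted p = 1).

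The summit share in the knockout rested on few peaks, and the call against flanks was lost with a fold enrichment of at least 5 (21 peaks, 31.0 points, exact test, adjusted p = 0.227). It was also lost with windows of 100 bp (exact test, adjusted p = 0.0547) and among the 25 peaks with at least 90% of windows occurring once (exact test, adjusted p = 0.0615). L2 and L1 peaks did not differ past the threshold there either (exact test, adjusted p = 0.791). The comparison of LINE with other distal peaks kept its call in each of these alternatives.

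Position around the summit was sharp in LV-MEIS1. In bins of 50 bp the word was in 33.8% of 325 L1 peaks and 39.2% of 181 L2 peaks at the summit, against 10.5% and 11% in the bin 500 bp below it. The other distal peaks had 43.1% at the summit and 10.6% in that bin. These bins leave out peaks outside chromosomes 1 to 22, X and Y.

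**Figure D4:**
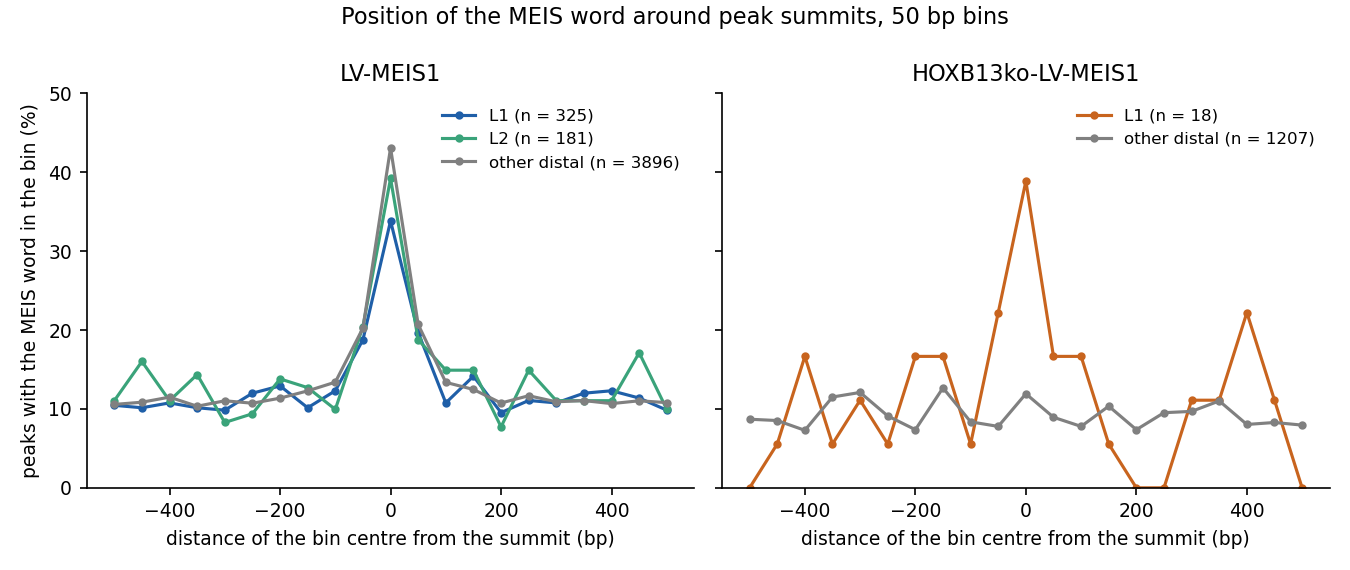
Share of peaks with the MEIS word (%) in 50 bp bins by distance of the bin centre from the summit (bp), for L1, L2 and other distal peaks of LV-MEIS1 (left) and L1 and other distal peaks of HOXB13ko-LV-MEIS1 (right). The share peaks at distance 0 in both LINE families of LV-MEIS1, at 33.8% and 39.2%, and the other distal peaks of HOXB13ko-LV-MEIS1 stay near flat, at 11.9% at the summit. The 18 knockout L1 peaks make a rough curve.

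TTTAT was at the summit of 385 of 551 LINE peaks in LV-MEIS1 (69.9%, 65.9 to 73.6) and in 41.4% of flanks, a difference of 28.5 points (exact binomial test, adjusted p = 5.16e-19), with 45.8% over the whole list and 54.1% in the other distal peaks. In HOXB13ko-LV-MEIS1 it was at 13 of 29 LINE summits (44.8%, 28.4 to 62.5) and in 31.0% of flanks (exact test, adjusted p = 0.865), with 13% over the whole list. The flanks of LINE peaks were rich in A and T, with a median GC content of 37.6% in LV-MEIS1, and so were their summits, at 35.6%, against 39.6% at the summits of the other distal peaks. In HOXB13ko-LV-MEIS1 the LINE summits had a median GC content of 38.6% and the other distal summits 52.5%. The part of base composition in the word shares between groups of peaks was not tested, and the flanks are the local reference for it.

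Both words were within 50 bp of the summit in 184 of the 551 LV-MEIS1 peaks (33.4%), TGACA alone in 94 (17.1%), TTTAT alone in 201 (36.5%) and neither in 72 (13.1%). The other distal peaks had both in 29%, TGACA alone in 28.2%, TTTAT alone in 25.1% and neither in 17.7%. LINE peaks were thus shifted from TGACA alone to TTTAT alone. In HOXB13ko-LV-MEIS1, 7 of the 29 had both, 8 TGACA alone, 6 TTTAT alone and 8 neither, whereas 886 of the 1260 other distal peaks (70.3%) had neither.

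The joined word TGATTTAT was rarer, and rarer still in flanks. In LV-MEIS1 it was in 59 of 551 LINE peaks (10.7%, 8.39 to 13.6) and 0.907% of flanks, beside 7.77% of all peaks and 9.50% of other distal peaks. It was in 38 of 328 L1, 15 of 182 L2 and 6 of 27 CR1 peaks. In HOXB13ko-LV-MEIS1 it was in 4 of 29 LINE peaks (13.8%, 5.50 to 30.6) and none of their flanks, beside 2.15% of all peaks and 2.94% of other distal peaks. Of the 474 knockout distal peaks outside all repeats 27 held it (5.70%), a share inside the LINE interval. All 4 of these LINE peaks overlap an LV-MEIS1 peak, and none of the 13 LINE peaks without overlap held it. No test was run on this word.

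The 12-base word AACAAATATTTA lay in a larger share of L2 peaks than of L1 or other distal peaks. It was within 50 bp of the summit in 14 of 182 L2 peaks (7.69%), 2 of 328 L1 peaks and 21 of 3926 other distal peaks (0.535%). The 14 were 8 L2a, 4 L2b and 2 L2c copies, with fold enrichments of 4.45 to 13.76, and 3 of them overlapped a knockout peak. TGACA was also present in 7 of the 14. TTTAT was present in 11, but the 12-base word itself supplies all but its last base wherever a thymine follows. A thymine followed in every window of the 12-base word shown above, so the 11 do not count separate HOX sites. The 12-base word was chosen because it was among the commonest at these summits, so these counts are a description, and it was searched on both strands.

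Few LINE peaks of the deposited LV-MEIS1 list were also called in the HOXB13ko-LV-MEIS1 list. Of the 551, 18 overlapped a HOXB13ko-LV-MEIS1 peak by at least 1 bp (3.27%, 2.08 to 5.10), against 7.66% of the whole list and 261 of 3926 other distal peaks (6.65%), lower by 3.38 points (Fisher's exact test, adjusted p = 0.00261). The share was 10 of 328 in L1 (3.05%), 6 of 182 in L2 (3.30%) and 1 of 27 in CR1. The call was lost with a fold enrichment of at least 5, where the shares were 3.69% and 5.85% (exact test, adjusted p = 0.129), and among peaks with at least 90% of windows occurring once, where they were 3.26% and 5.4% (exact test, adjusted p = 0.0672).

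Seen from the other list, 16 of the 29 HOXB13ko-LV-MEIS1 LINE peaks overlapped a deposited LV-MEIS1 peak (55.2%, 37.5 to 71.6), against 22.3% of that whole list and 259 of 1260 other distal peaks (20.6%), higher by 34.6 points (Fisher's exact test, adjusted p = 0.00013). The comparison depended on the repeats of other kinds in the knockout list. Of the 474 distal peaks outside all repeats 42.8% overlapped, and the difference of 12.3 points did not pass (exact test, adjusted p = 0.314). By family 10 of 20 L1 peaks, 4 of 7 L2 peaks and the CR1 and RTE-BovB peaks overlapped.

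The overlapping peaks were the strong ones of LV-MEIS1. Of the LINE peaks above percentile 90 of fold enrichment 11 of 46 overlapped (23.9%, 13.9 to 37.9), of those between percentiles 75 and 90 4 of 77 (5.19%), between 50 and 75 2 of 148 (1.35%), and up to percentile 50 1 of 280 (0.357%, 0.0631 to 1.99). The other distal peaks had 28.2% (24.2 to 32.5) in the highest class and 3.09% (2.40 to 3.97) in the lowest. The intervals of LINE and other distal peaks overlapped in the highest class and not in the lowest, which was not tested apart.

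**Figure D5:**
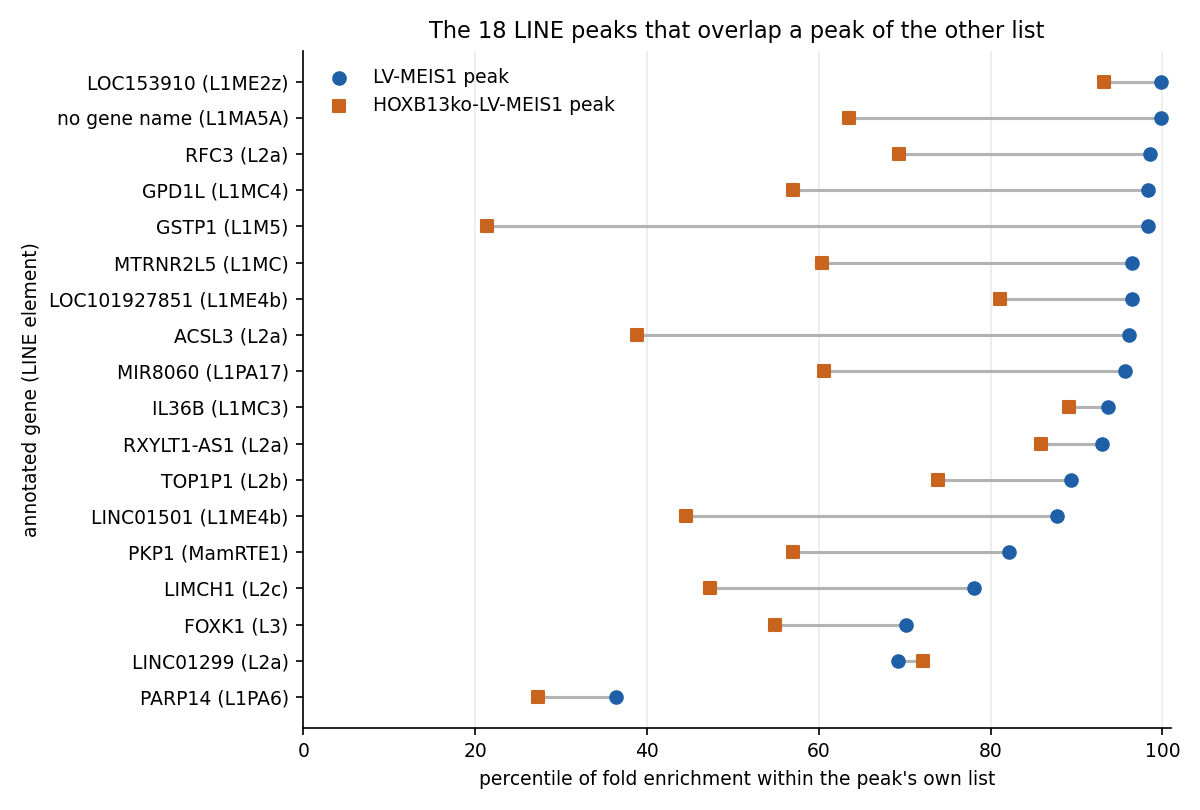
Percentile of fold enrichment within the peak's own list (horizontal axis) for the 18 LINE peaks of LV-MEIS1 that overlap a HOXB13ko-LV-MEIS1 peak (circles) and for the knockout peak (squares), by annotated gene and element. The circle lies to the right of the square in 17 of 18 pairs, LINC01299 being the exception, and 11 circles lie at or above percentile 90.

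Within the 18 pairs the summits lay 1 to 89 bp apart, with a median of 24 bp, and 16 were within 50 bp. In 16 pairs HOMER gave the same LINE element in both lists, and in 2 (L2a near RFC3 and L2b near TOP1P1) it gave the knockout summit, 19 and 24 bp away, no repeat. The LV-MEIS1 peak was the wider in 16 pairs. Its percentile ran from 36.4 to 99.9 with a median of 94.7, and that of the knockout peak from 21.3 to 93.2 with a median of 60.5. Because the pairs were picked by being called in both lists and the pools differ in depth, these percentiles are a description.

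The pairs differed in how much rank they kept. At LOC153910 fold enrichment was 16.96 in LV-MEIS1 (percentile 99.9) and 10.12 in HOXB13ko-LV-MEIS1 (93.2). At IL36B it was 10.83 (93.7) and 9.12 (89.1), and at RXYLT1-AS1 10.63 (93.0) and 8.55 (85.9). These 3 kept a percentile above 85. All were in introns, as were the LINC01501 and PKP1 pairs, which stood at percentiles 44.6 and 57.1 in the knockout.

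At GSTP1, a glutathione transferase gene whose promoter is often methylated in prostate cancer, an L1M5 copy 1034 bp upstream of the start had 13.49 (percentile 98.3) in LV-MEIS1 and 4.56 (21.3) in HOXB13ko-LV-MEIS1. At ACSL3 the values were 11.79 (96.1) and 5.33 (38.9), and at LINC01501 9.39 (87.7) and 5.60 (44.6). These were the pairs with the largest distances in rank, and GSTP1 and LINC01501 held TGACA in both lists.

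Apart from LINC01299, the remaining pairs lay between these groups in distance of rank. Fold enrichment in LV-MEIS1 and the knockout, with its percentile in brackets, was 13.76 (98.5) and 6.79 (69.3) at RFC3. It was 13.54 (98.3) and 6.14 (57.1) at GPD1L, and 12.14 (96.5) and 7.84 (81.1) at LOC101927851. The L1MC copy annotated to MTRNR2L5, which lies inside the protocadherin gene PCDH15, had 12.14 (96.5) and 6.25 (60.3). The L1MA5A copy without a gene name had 16.42 (99.8) and 6.44 (63.5). MIR8060 had 11.60 (95.6) and 6.28 (60.6), and TOP1P1 9.73 (89.4) and 7.13 (73.9). At PKP1, which encodes the desmosome protein plakophilin, an intronic MamRTE1 copy had 8.59 (82.2) and 6.14 (57.1). The 4 weakest of LV-MEIS1 were LIMCH1, FOXK1, LINC01299 and PARP14. LIMCH1 had 8.09 (78.1) and 5.74 (47.3), FOXK1 7.35 (70.1) and 6.04 (54.9), and PARP14 5.61 (36.4) and 4.86 (27.3). LINC01299, at 7.25 (69.2) and 6.99 (72.1), was the pair with the higher percentile in the knockout.

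Words were common in the pairs. TGACA was within 50 bp of 12 of the 18 LV-MEIS1 summits and 11 of the knockout ones, TTTAT of 14 and 11, and TGATTTAT of 6 and 5. In LV-MEIS1 TGACA was in 66.7% of the 18 (43.7 to 83.7) and 49.9% of the 533 LINE peaks without overlap, and TGATTTAT in 33.3% (16.3 to 56.3) and 9.94% (7.68 to 12.8). The pairs at MIR8060, LOC101927851 and ACSL3 held neither TGACA nor TGATTTAT in either window.

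The 13 LINE peaks of HOXB13ko-LV-MEIS1 without an overlapping peak in the deposited LV-MEIS1 list were 10 L1 and 3 L2 copies, and whether a longer list holds a peak there was not tested. Fold enrichment ran from 2.08 to 8.29 with a median of 6.22, TGACA was at 6 of the 13 summits (46.2%, 23.2 to 70.9) against 7.69% of flanks, and TTTAT at 3. They lay at COX6A1 (8.29), MIR4776-1 (8.26), LINC01756 (7.09), SLC22A31 (6.52), BRD1 (6.33), PRSS22 (6.23), TSKU (6.22), TTC8 (4.93), LOC101926963 (4.78), SLC6A3 (4.53), an unnamed site on chromosome 21 (3.37), TMEM242 (3.05) and MIR6724-4 (2.08). The SLC6A3 and MIR6724-4 peaks were on an alternate and an unplaced contig, and the latter had the highest local background of all 29, 31.5. The nearest LV-MEIS1 summit was 7285 bp away at COX6A1 and at least 14888 bp away at the others for which their contig had one. Windows from 2 of these peaks, both with TGACA, are given to show what such a summit held.
COX6A1, L2a, chr12:120430643-120430671, minus strand: tggggcgactctTGACAcccgcgtctgca
TSKU, L1M4c, chr11:76776656-76776684, plus strand: tgagaaatctgcTGACAgtcttattgagg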

How the data were processed

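MEIS1 ChIP-seq peaks of 2 pooled lists, 1 per line, were analysed from the tables the authors deposited. Per the labels and the submitters' processing notes, 50-base single-end reads were trimmed (Trimmomatic 0.38), aligned to hg38 with Bowtie2, freed of duplicates (Picard 2.18.10), pooled and called with MACS2 2.1.2 at q under 0.01 against the input, and annotated with HOMER 4.9.1. The signal column the authors deposited holds the summit pileup, with the larger pool scaled down to the input. Fold enrichment, also as deposited, is a ratio of pileup to expected local pileup. The authors' p-values and q-values are given as −log10 values, and their column names were lost in export, so the columns were identified by position and by equality with the score in the annotation. The deposited distances to the transcription start site are HOMER's, in bp.

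Peaks and annotations were joined by chromosome and summit. Words were searched on both strands of hg38 within 50 bp of summits and in flanks 500 bp away (Python 3.11.15, pysam 0.24.0, scipy 1.17.1), and host genes came from GENCODE release 44. Exact binomial and Fisher's exact tests took peaks as units, all two-sided, with 14 tests adjusted together, and describe the pooled lists, with no variation between cultures. The script was tested on simulated peaks. Wilson intervals of 95% cover counting error only. Members and gene lists were chosen with earlier results of these data known. Genes named are those of the 5 strongest peaks per family and list, of overlapping peaks (the 15 strongest by rule, here all 18), with 3 or more LINE peaks, within 1 kb of a start site, in the gene lists (up to 5 per list by fold enrichment), and DCN and LUM. The LINE peaks found only in the knockout list and the element names with extreme word shares were added after their values were seen. Some sequence windows are not reported here.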

Additional observations from a re-analysis of the deposited data

How the results depend on the processing

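Of 144 alternatives to 30 results, 137 kept the direction and the side of the threshold, 6 lost the call and 1 moved. They were a fold enrichment of at least 5, a −log10 q of at least 5, chromosomes 1 to 22, X and Y only, windows of 100 bp, summits within 100 bp or 50% of both peaks as overlap, distal peaks outside all repeats as the comparison, and, chosen after seeing the data, peaks with at least 90% of 50-base windows occurring once. With a fold enrichment of at least 5, the median fold enrichment of LV-MEIS1 LINE peaks was 6.64, the overlap of LV-MEIS1 LINE peaks was -2.16 points from that of other distal peaks (exact test, adjusted p = 0.129), and TGACA at knockout LINE summits exceeded flanks by 31.0 points (exact binomial test, adjusted p = 0.227). With windows of 100 bp the last was also 31.0 points (exact test, adjusted p = 0.0547). Among peaks with at least 90% of windows occurring once it was 38 points (exact test, adjusted p = 0.0615), and the overlap difference in LV-MEIS1 was -2.14 points (exact test, adjusted p = 0.0672). Against distal peaks outside all repeats, knockout LINE peaks overlapped by 12.3 points more (exact test, adjusted p = 0.314). The cause of these losses was not tested, except that each filter on peaks leaves fewer of them. No interval was shared by more than 1 peak, so counting each once changed nothing. No paired analysis was possible because the precipitations of each line were pooled into 1 list, and for the same reason none could be left out.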
